A study of Rattus norvegicus with 6 samples.

Results

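Mast cell genes were described in lung RNA of a rat model of pulmonary fibrosis (PF). The members were 9 genes taken by name from the deposited table of linear transcripts, out of 21210 gene names with at least 1 annotated transcript. They were the proteases Cma1, Tpsab1, Tpsb2 and Cpa3, the receptor Kit and its ligand Kitlg, the IgE receptor subunits Ms4a2 and Fcer1a, and the histamine-forming enzyme Hdc. The control group held 3 Sprague-Dawley rats given saline and the model group 3 rats given a single intratracheal dose of bleomycin at 7 mg/kg. The rats were 7 weeks old before treatment, and whole lung specimens were taken on day 28. One rRNA-depleted library was made per rat, so each value is a mean over all the cells of a specimen. Differences in the number of mast cells and in RNA per mast cell cannot be told apart.

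Mast cells are tissue-resident granulocytes that grow from Kit-positive progenitors and depend on Kit ligand for survival. Their granules hold histamine, chymase, tryptases and carboxypeptidase A3, and crosslinking of IgE on the high-affinity receptor releases them. In lung they lie around airways, vessels and pleura, and they have long been studied in fibrotic lung. Kit and Kitlg are not restricted to them, since lung capillary endothelium also carries Kit, and endothelium, epithelium and fibroblasts make its ligand.

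No mast cell gene passed the study's thresholds between model and control lungs. The proteases, the IgE receptor subunits and Hdc were low in both groups, 5 of these 7 genes with a mean below 1 FPKM. Kit and Kitlg, summed over all transcripts under their names, ranked above most genes tested. Kit was 1.17 times as high in the model, at 27.7 ± 2.52 FPKM in control and 32.5 ± 1.69 FPKM in model lungs (SD, n = 3), and its 3 model libraries lay above its 3 control libraries. For the other 8 genes the 95% interval of the difference included 0.

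Expression was measured as FPKM, fragments scaled to transcript length and library size, summed over all transcripts that carry the gene's name. Model and control were compared with limma on log2(FPKM + 1) over the 19203 genes above 0 in at least 3 of the 6 libraries. The study's thresholds were applied as an unadjusted p no higher than 0.05 together with group means that differ by at least 1 on the log2 scale, and genes past both are named called here. All 9 members passed the filter on low values and 0 were called, where 293 of all genes tested were called (1.53%, with 132 higher, 0.687%, and 161 lower, 0.838%). At an unadjusted p of at most 0.05 alone, 1 of the 9 was found, Kit, where 4.9% of all genes were. Adjusted p values of the members lay between 0.934 and 0.992 (limma, Benjamini-Hochberg over all genes), and 2 genes of the whole table, or 0.0104%, were below 0.05. The log2 fold change was above 0 for 2 members and below 0 for 7, with a median of -0.12 where the median of all genes was -0.01. Of all genes tested, 47.7% were above 0. The 1 added to each FPKM compresses the differences of genes far below 1 FPKM. By the plain log2 ratio of mean FPKM, Ms4a2 (-1.31), Fcer1a (-1.10) and Tpsab1 (-1.01) were past the threshold of 1 and missed the call on p alone. Of all genes, 4% had a ratio that low whatever their p. That share covers genes of every level, whereas these members had means of 0.114, 0.219 and 0.0639 FPKM. It is thus no matched background, and no excess can be read from it. Control and model values did not overlap for 2 members, Kit and Tpsab1, where they did not for 10.7% of all genes (4.86% higher in the model, as Kit was, and 5.83% lower, as Tpsab1 was). Separate rats of 1 laboratory were compared, and 3 against 3 allow no exact permutation p below 0.1.

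**Figure D1:**
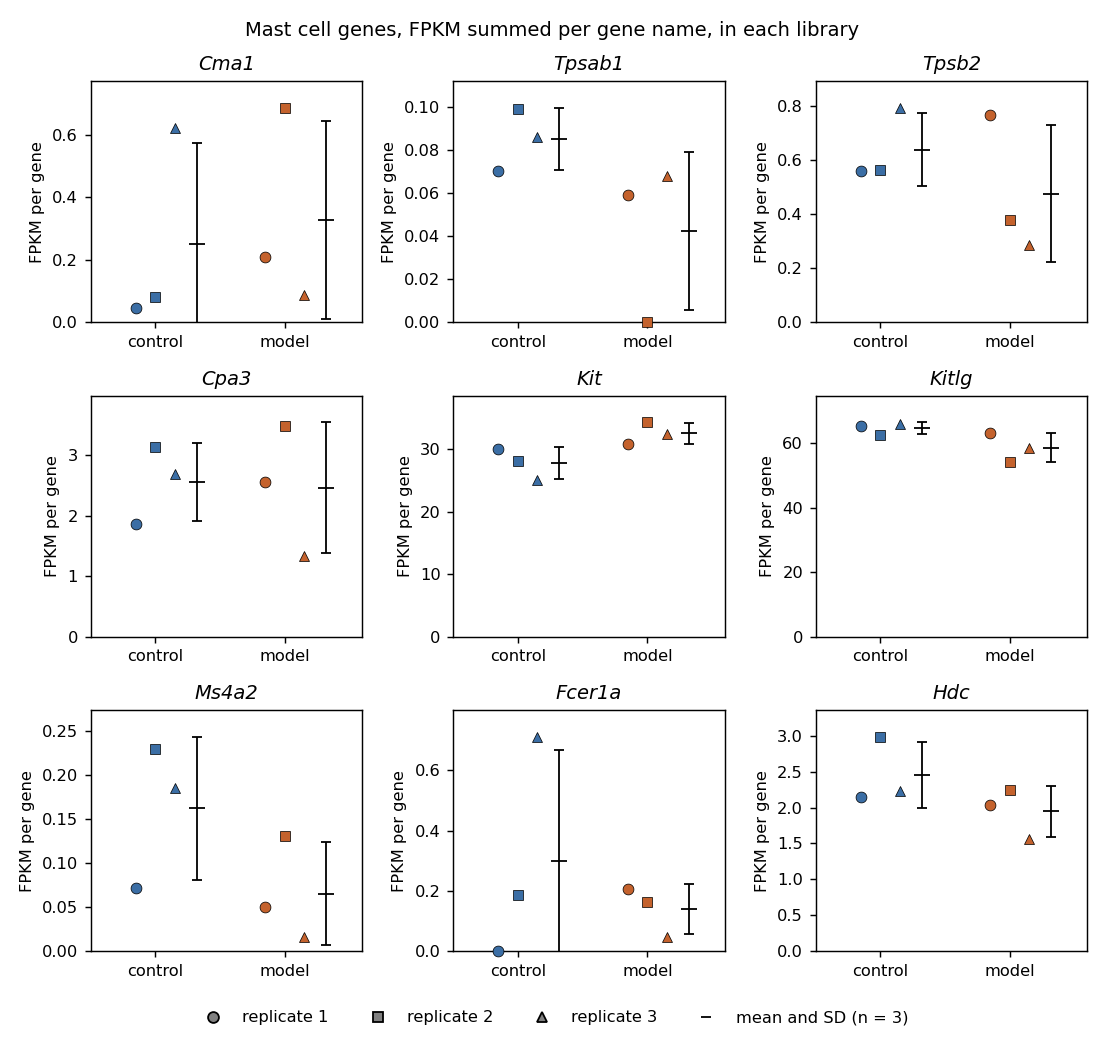
FPKM of each of the 9 mast cell genes (vertical axis, linear, a different scale in each panel) in the 3 control and the 3 model libraries; symbols mark the replicate, and the bar beside them gives the mean and SD (n = 3), cut off at 0. Kit is the gene whose model values all lie above its control values, Tpsab1 lies below 0.1 FPKM throughout, and the symbols of the other 7 genes overlap between groups.

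The 6 libraries held lung tissue by their markers, with Sftpc, which encodes surfactant protein C, between 2410 and 4146 FPKM. A transcript of 1 kilobase at 1 FPKM corresponded to between 42.6 and 48.9 estimated reads per library, so the libraries were of similar depth. Small structured RNAs named after Rfam families took 34.1% to 46.4% of all FPKM. This is a share of values scaled to length, and their share of reads was not computed. Model replicate 3 stood apart in Bpifa1, a secreted protein of the upper airways, at 95.8 FPKM where no other library exceeded 0.135. It also stood apart in Muc5b, an airway mucin, at 22.2 FPKM where the others lay between 1.59 and 3.68. Scgb1a1 and Scgb3a2 of the airway list were instead highest in control replicate 3, at 7693 and 214 FPKM. In model replicate 3 they were at 6140 and 191 FPKM. Col3a1, a fibrillar collagen, was 1.24 times as high in the model, at 169 ± 13.1 in control and 208 ± 22.3 FPKM in model lungs (SD, n = 3), with no overlap between groups (unadjusted p = 0.0365, adjusted p = 0.934, limma). Of the 10 tested airway and mesenchymal markers, 7 had a log2 fold change above 0 and 3 below. All 8 lung epithelial markers were above 0, with a median of 0.20, where 47.7% of all genes tested were above 0. In both lists 0 genes were called, where 1.53% of all genes were. Col1a1, the main fibrillar collagen, was at 63.0 ± 3.18 FPKM in control and 72.4 ± 12.2 in model lungs. The epithelial markers of smallest p were Aqp5, a water channel of type I cells, at 103 ± 14.9 and 123.3 ± 6.54 FPKM, Napsa, a protease of type II cells, at 81.3 ± 9.91 and 90.0 ± 6.75, and Lamp3, a lamellar body protein, at 63.9 ± 30.1 and 79.2 ± 13.2 (SD, n = 3), each overlapping between groups. Coordinates below are those of the deposited table, whose genome build is not given in the sources used here.

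By level per length, the members fell in the order Kitlg, Kit, Cpa3, Hdc, Tpsb2, Cma1, Fcer1a, Ms4a2 and Tpsab1. Over the 6 libraries Kitlg had a mean of 61.5 FPKM, above 97.7% of the genes tested, and Kit one of 30.1 FPKM, above 93.7%. These ranks are those of sums over all transcripts, intronic ones included. Annotated transcripts made up between 43.7% and 48.8% of the Kitlg sum and between 21.1% and 43.1% of the Kit sum. Cpa3 had a mean of 2.51 FPKM and Hdc one of 2.20, and these neighbours did not differ beyond their spread. The means of Tpsb2 (0.557), Cma1 (0.288), Fcer1a (0.219), Ms4a2 (0.114) and Tpsab1 (0.0639) lay below 1 FPKM, as did those of 27.7% of all genes tested. The ranges of these 5 genes overlapped from each neighbour to the next, whereas every value of Hdc lay above every value of Tpsb2.

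Promoter sequences of Cpa3 and Kit are shown as examples of a start region poor and one rich in CpG, the dinucleotide that marks the promoters of broadly expressed genes. They were taken from RefSeq (build GRCr8, whose coordinates are not those of the expression table) and run from 250 bases before to 50 bases after the annotated start of the gene. A sequence was found for 8 of the 9 members, not for Ms4a2. Capitals mark GATA motifs (GATA preceded by A or T and followed by A or G, on either strand) and TATAAA on either strand. The marked motifs do not overlap, and the Kit window holds none.
Cpa3, chr2:104673188-104673487, minus strand: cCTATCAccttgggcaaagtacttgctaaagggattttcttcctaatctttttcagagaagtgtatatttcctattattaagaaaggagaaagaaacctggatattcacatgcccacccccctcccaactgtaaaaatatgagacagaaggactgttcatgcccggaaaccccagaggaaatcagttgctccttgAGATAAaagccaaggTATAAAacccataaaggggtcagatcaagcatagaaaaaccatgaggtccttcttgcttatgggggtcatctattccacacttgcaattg
Kit, chr14:32978763-32979062, minus strand: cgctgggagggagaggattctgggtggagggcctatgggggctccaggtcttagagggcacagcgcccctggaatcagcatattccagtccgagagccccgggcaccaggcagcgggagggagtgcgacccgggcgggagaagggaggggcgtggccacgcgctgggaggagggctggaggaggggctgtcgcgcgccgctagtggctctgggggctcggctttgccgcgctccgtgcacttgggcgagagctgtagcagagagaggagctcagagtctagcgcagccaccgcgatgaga
The Cpa3 window was 41.7% G and C with 1 CpG, below the median of 51.7% over 33469 promoters, whereas the Kit window was 69.0% with 23 CpG, above 90.3% of them. Kitlg stood beside Kit, at 68.0% and 28 CpG. The windows of Cma1, Tpsab1, Tpsb2, Fcer1a and Hdc lay between 46.7% and 53.3%, with between 3 and 6 CpG.

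A GATA motif, the sequence bound by the mast cell factors Gata1 and Gata2, was found in the windows of Cma1, Cpa3 and Fcer1a, 3 of 8, where 30.3% of all promoters held one. In Cpa3 an AGATAA began 55 bases before the start, another GATA motif on the opposite strand 249 bases before it, and a TATAAA 40 bases before it, and in Cma1 an AGATAA began 64 bases before. TATAAA was found in Cpa3, Kitlg and Fcer1a, 3 of 8, where 14.2% of all promoters held it. The E-box CATGTG, searched on both strands and the kind of motif that Mitf binds, was found in Tpsb2, Cpa3 and Fcer1a, 3 of 8, where 14.0% of all promoters held it. The transcription factor mRNAs themselves were measured in every library for Gata2, at 16.2 ± 1.02 FPKM in control and 15.1 ± 2.09 in model lungs, and for Mitf, at 24.5 ± 1.70 and 27.7 ± 5.06 (SD, n = 3). Gata1 was listed at 0 in 4 of the 6 libraries and reached 0.0362 FPKM at most.

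Cpa3 (chromosome 2, 105016626 to 105047984, minus strand) encodes carboxypeptidase A3, which is stored in the granules with the other proteases. It had 1.86, 3.14 and 2.68 FPKM in the control and 2.57, 3.49 and 1.34 FPKM in the model libraries. The groups overlapped, and both the highest and the lowest value belonged to model rats. The log2 fold change was -0.07 (95% interval -0.72 to 0.58, adjusted p = 0.992, limma), which leaves room for changes of about 1.49 times upward and 0.605 times downward on this scale. Without control replicate 2 or model replicate 3 its sign turned, to 0.04 and 0.19.

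Most of the Cpa3 value did not come from its annotated mRNA. An assembled fragment of a single exon inside an intron, MSTRG.19301.1, 524 bases with no strand, held between 59.2% and 81.4% of the summed FPKM. The annotated transcript of 11 exons alone had 0.346, 1.02 and 1.10 FPKM in control and 0.707, 0.965 and 0.300 FPKM in model libraries. These values overlapped as well, and they rested on between 22.1 and 85.8 estimated reads per library. By its annotated transcript Cpa3 thus lay below Hdc in every library, where the summed values of the genes overlapped.

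The tryptases are trypsin-like proteases that rat mast cells of connective tissue store as tetramers with heparin. Tpsb2 (chromosome 10, 14722756 to 14724600) had 0.560, 0.562 and 0.793 FPKM in control and 0.766, 0.378 and 0.284 FPKM in model libraries. One model rat lay within the control range and the others below it. Its log2 fold change was -0.16 (95% interval -0.49 to 0.17, adjusted p = 0.934, limma), from between 17.8 and 52.8 estimated reads per library. Without model replicate 1 its unadjusted p was 0.0301 at a log2 fold change of -0.30 (adjusted p = 0.924, limma), and it was not called.

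Tpsab1 (chromosome 10, 14701253 to 14703668), the neighbouring tryptase, had 0.0705, 0.0993 and 0.0863 FPKM in control and 0.0592, 0 and 0.0680 FPKM in model libraries. All model values lay below all control values, but the highest library held 5.18 estimated reads. In model replicate 2 the gene was listed at 0, and 3 reads there would have been 0.0557 FPKM, nearly the value of the other model rats. Its log2 fold change was -0.06 (95% interval -0.17 to 0.05, adjusted p = 0.934, limma, exact permutation p = 0.1), and a difference between groups was not detectable at this depth. The tryptase genes are close in sequence, and how reads that fit both were counted is not stated.

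Cma1 (chromosome 15, 34601037 to 34603819) encodes chymase, a protease of the mast cell granules. It had 0.0440, 0.0801 and 0.622 FPKM in control and 0.210, 0.686 and 0.0856 FPKM in model libraries. Each group held a single library far above the others, control replicate 3 and model replicate 2, both near 30 estimated reads, and the lowest library held 2. The spread within a group therefore exceeded the difference between groups, with a log2 fold change of 0.09 (95% interval -0.45 to 0.63, adjusted p = 0.977, limma). Its sign turned without control replicate 1 (-0.02) or model replicate 2 (-0.09). Cma1 belongs to a family of mast cell protease genes that lie together on chromosome 15 and resemble each other, so its reads are uncertain too.

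Summed over the 4 proteases, the level was 2.54, 3.88 and 4.19 FPKM in control and 3.60, 4.55 and 1.78 FPKM in model libraries. The intronic fragment MSTRG.19301.1 under the name Cpa3 made up between 37.9% and 59.8% of this sum. Over annotated transcripts alone the sum was 1.02, 1.76 and 2.60 FPKM in control and 1.74, 2.03 and 0.737 FPKM in model libraries. Model replicate 3 was lowest on both counts, the highest library was model replicate 2 with the fragment and control replicate 3 without it, and the groups overlapped. The 5 other genes with a mean of at least 1 FPKM whose log2(FPKM + 1) followed the first of these sums, fragment included, most closely over the 6 libraries were Lgals2, Chd6, Lfng, AABR07043748.1 and Vegfc, with Pearson's r between 0.984 and 0.992 and Spearman's rho between 0.943 and 1. Against the sum of annotated transcripts, r of the same 5 genes was between 0.900 and 0.985. They were the highest of 13886 genes compared with the first sum, and all of these values share the libraries and their scaling, so they are a description with no test.

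The high-affinity IgE receptor binds IgE through its alpha chain, Fcer1a, and signals through the beta chain, Ms4a2, and a shared gamma chain, Fcer1g. Fcer1a (chromosome 13, 91730925 to 91735361) had 0, 0.185 and 0.710 FPKM in control and 0.208, 0.163 and 0.0472 FPKM in model libraries. The control libraries spanned the whole model range. The log2 fold change was -0.15 (95% interval -0.61 to 0.31, adjusted p = 0.946, limma), and without control replicate 3, which held 31.3 estimated reads of this gene where no other library held more than 9.10, it was 0.06.

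Ms4a2 (chromosome 1, 227957302 to 227965386) had 0.0725, 0.230 and 0.186 FPKM in control and 0.0503, 0.131 and 0.0160 FPKM in model libraries. Model replicate 2 lay between the control values and the other model rats lay below them. The log2 fold change was -0.12 (95% interval -0.30 to 0.05, adjusted p = 0.934, limma), and the estimated reads were between 1.97 and 26.2 per library. Its mean FPKM in the model was 0.404 times that in control, and with 0.1 in place of 1 added to each FPKM the log2 fold change was -0.67 (unadjusted p = 0.121, adjusted p = 0.934, limma). Without control replicate 1 the gene was called lower, at 0.208 and 0.0656 FPKM (unadjusted p = 0.0423, adjusted p = 0.891, limma). Fcer1g, which macrophages and other myeloid cells also express, was far more abundant, at 40.1 ± 4.56 FPKM in control and 36.8 ± 4.25 in model lungs (SD, n = 3).

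Hdc (chromosome 3, 119057517 to 119075619), histidine decarboxylase, makes histamine from histidine in mast cells and basophils. It had 2.15, 2.98 and 2.23 FPKM in control and 2.04, 2.24 and 1.56 FPKM in model libraries. Model replicate 3 was the lowest and control replicate 2 the highest, and the other 4 libraries lay close together. Between groups the log2 fold change was -0.23 (95% interval -0.61 to 0.15, adjusted p = 0.934, limma), with between 169.5 and 299 estimated reads per library. Of its 2 annotated transcripts, ENSRNOT00000041569 was at 1.74 FPKM in control replicate 2 and listed at 0 in every other library. By ENSRNOT00000086724 alone, the values were 1.87 ± 0.546 in control and 1.95 ± 0.352 FPKM in model lungs (SD, n = 3), a log2 fold change of 0.05. Both transcripts have 12 exons, with 2367 and 2343 bases. In control replicate 2, 173.4 of the 299 estimated reads were assigned to ENSRNOT00000041569. The value of 0.05 therefore leaves out most of the Hdc reads of that rat and depends on how reads were assigned.

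**Figure D2:**
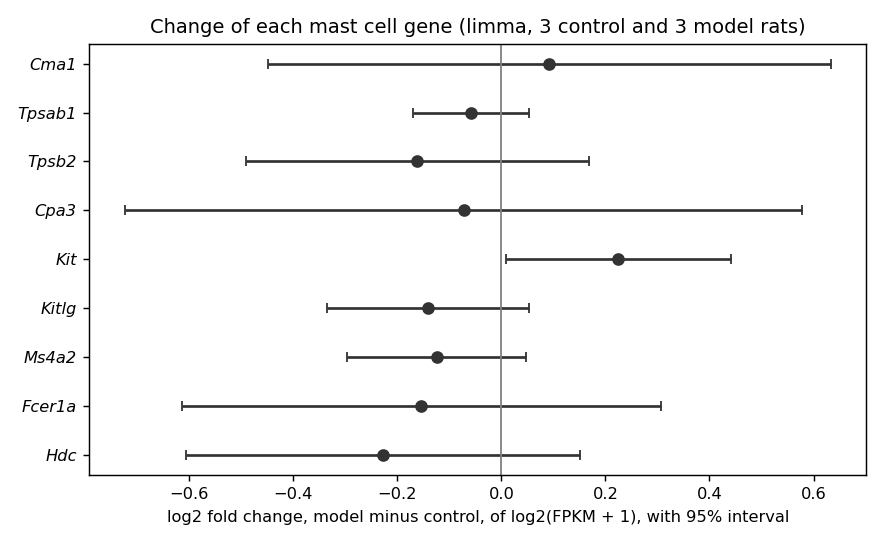
Log2 fold change (model minus control, horizontal axis, on log2(FPKM + 1)) of each mast cell gene, with points for the estimates and bars for 95% intervals from limma (3 control and 3 model rats). Kit is the gene whose unadjusted interval, from 0.01 to 0.44, lies above 0, and the intervals of the other 8 genes include 0.

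Kit (chromosome 14, 35072108 to 35149610, minus strand) is the receptor tyrosine kinase for Kit ligand. It had 30.0, 28.1 and 25.0 FPKM in control and 30.9, 34.3 and 32.4 FPKM in model libraries. The lowest model value lay just above the highest control value. For Kit the log2 fold change was 0.22 (95% interval 0.01 to 0.44, unadjusted p = 0.0441, adjusted p = 0.934, limma, exact permutation p = 0.1), from at least 8550 estimated reads per library. Its unadjusted p lay above 0.05 without control replicate 2 (0.0813), control replicate 3 (0.130), model replicate 1 (0.0537), model replicate 2 (0.122) or model replicate 3 (0.0798), and was 0.0305 without control replicate 1, while the log2 fold change stayed between 0.16 and 0.28.

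The table held 13 transcripts under the name Kit, 2 annotated, 10 assembled on the same strand and 1 inside an intron on the opposite strand. The annotated transcript ENSRNOT00000090654 had 5.68, 6.69 and 4.99 FPKM in control and 8.27, 13.8 and 9.23 FPKM in model libraries. All model values lay above all control values, and the mean was higher by 4.65 FPKM, where the mean of the whole gene was higher by 4.78. The other 12 transcripts together had 22.0 ± 2.19 FPKM in control and 22.1 ± 1.44 in model lungs (SD, n = 3). This sum joins parts that moved in opposite directions. The 10 assembled same-strand transcripts had 18.4 ± 2.44 FPKM in control and 17.6 ± 0.948 in model lungs. The opposite-strand intronic transcript, which is not Kit mRNA, had 2.53 ± 0.239 and 3.55 ± 1.13 FPKM (SD, n = 3). Each part overlapped between groups. In the fit over 64867 transcripts, the log2 fold change of ENSRNOT00000090654 was 0.73 (95% interval 0.22 to 1.24, unadjusted p = 0.0132, adjusted p = 0.945, limma). Its log2 ratio of group means was 0.85, short of the threshold of 1.

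Among the 32 transcripts of the members that passed the filter, 0 were called by limma, where 2.98% of all transcripts were called, and 1 had an unadjusted p of at most 0.05. The groups did not overlap for 7 of the 32, 3 higher and 4 lower, where they did not for 10.4% of all transcripts. Besides ENSRNOT00000090654 and the single transcript of Tpsab1, they were 2 of Kit and 3 of Kitlg. In Kit, the assembled transcript MSTRG.11312.8 was at 3.73 ± 0.842 FPKM in control and 2.18 ± 0.904 in model lungs, and MSTRG.11312.6 was at 1.06 ± 0.0742 and 1.99 ± 1.12 FPKM (SD, n = 3). Transcripts of 1 gene share most of their bases, and the split of reads between them is an estimate of the authors' assembly, so neighbouring transcripts are not independent measurements.

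With the 2 annotated Kit transcripts alone, a sum chosen after the data were seen, Kit had 6.33, 7.96 and 6.23 FPKM in control and 9.20, 14.8 and 10.2 FPKM in model libraries. The groups were apart, and the mean was 1.66 times as high in the model (log2 fold change 0.64, 95% interval 0.16 to 1.12, unadjusted p = 0.0170, adjusted p = 0.972, limma). The size of the Kit difference thus depended on which transcripts were counted. Without the intronic transcript the log2 fold change was 0.20, and its interval included 0 (95% interval -0.04 to 0.43, unadjusted p = 0.0906, adjusted p = 0.948, limma).

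**Figure D3:**
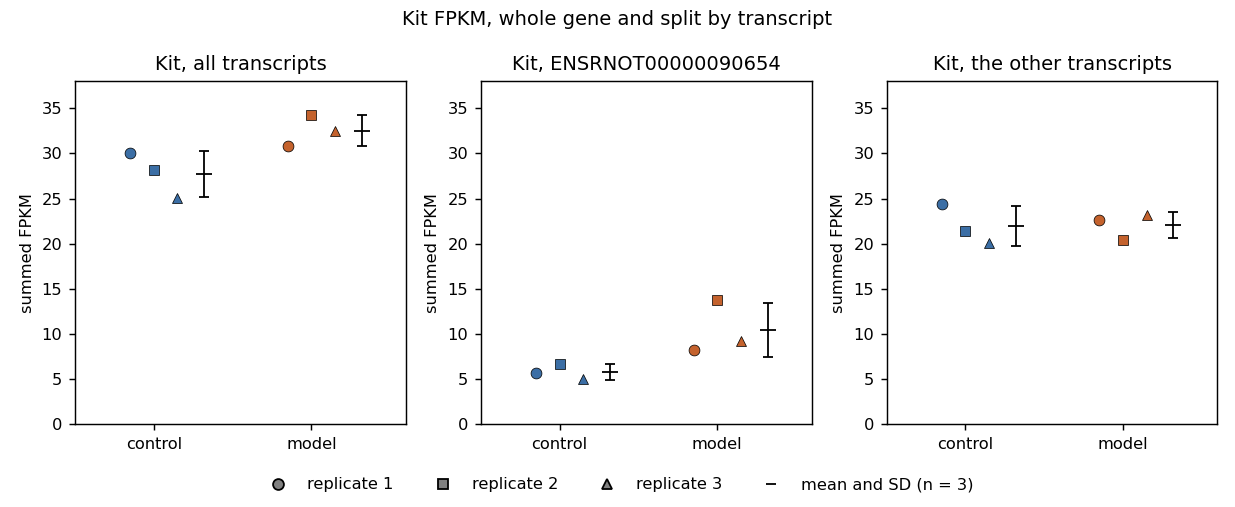
Summed FPKM of Kit (vertical axis, the same linear scale in each panel) for all 13 transcripts, for ENSRNOT00000090654 and for the other 12 transcripts, in the 3 control and 3 model libraries; symbols mark the replicate and bars the mean and SD (n = 3). The groups are apart in the first 2 panels and overlap in the third.

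The annotated Kit transcripts each have 21 exons and differ by 15 bases in length. ENSRNOT00000090654 extends 27 bases further at its ends, so ENSRNOT00000003050 is 12 bases longer between the shared ends. Kit is known for isoforms that differ by a short in-frame insert next to the transmembrane segment, but the table gives no exon borders, so where the 12 bases lie was not determined. ENSRNOT00000003050 was at 1.06 ± 0.351 FPKM in control and 0.956 ± 0.0319 in model lungs (SD, n = 3). ENSRNOT00000090654 made up 89.7%, 84.1% and 80.0% of both in control and 90.0%, 93.3% and 90.6% in model libraries. The model shares lay above the control shares, with control replicate 1 just below the lowest of them.

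Lung capillary endothelium is a source of Kit mRNA other than mast cells, and its markers were measured beside it. Of the 10 listed markers, 8 were tested and 0 were called, 4 with a log2 fold change above 0 and 4 below, with a median of -0.002. Their summed FPKM ranged from 452 to 539 in control and from 421 to 561 in model lungs, so the groups overlapped. Car4, carbonic anhydrase 4 of capillary endothelium, was at 22.7 ± 1.04 FPKM in control and 18.9 ± 3.43 in model lungs (SD, n = 3). Gpihbp1, which holds lipoprotein lipase on capillaries, had 17.8, 10.6 and 9.34 FPKM in control and 16.3, 12.5 and 18.3 FPKM in model libraries. Apln, the ligand apelin, was at 14.3 ± 1.71 and 15.9 ± 1.94 FPKM (SD, n = 3). The 3 genes overlapped between groups, and the part of endothelial cells in the Kit difference was not tested.

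Kitlg (chromosome 7, 42197847 to 42353623 over all its transcripts) encodes the growth factor that mast cells need. It had 65.1, 62.5 and 66.0 FPKM in control and 63.1, 54.0 and 58.5 FPKM in model libraries. The highest model value lay within the control range and the others below it. The log2 fold change was -0.14 (95% interval -0.33 to 0.05, adjusted p = 0.934, limma), which on this scale allows between 0.793 and 1.04 times the control level. With transcripts weighted by their length it was -0.04. Of the 11 transcripts under the name Kitlg, 2 lay inside introns and 1 beside the gene, and these made up between 22.8% and 31.7% of the Kitlg sum. Without them the log2 fold change was -0.06, at 46.0 ± 1.53 FPKM in control and 44.3 ± 3.98 in model lungs (SD, n = 3).

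Kit ligand exists as a form with an exon that carries the main cleavage site, which is readily shed, and a form without it that stays longer on the membrane. The annotated Kitlg transcripts share their start and end and differ by 1 exon and 84 bases, or 28 codons. The isoform of 10 exons, ENSRNOT00000008471, had 16.3, 14.9 and 17.6 FPKM in control and 5.95, 13.7 and 14.1 FPKM in model libraries, and the groups did not overlap. Its log2 fold change was -0.57 (95% interval -1.36 to 0.22, adjusted p = 0.945, limma). The isoform of 9 exons, ENSRNOT00000007231, had 13.0, 15.5 and 11.2 FPKM in control and 22.4, 10.8 and 12.3 FPKM in model libraries, which overlapped.

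As a share of both isoforms, the form of 10 exons made up 55.5%, 49.0% and 61.0% in control and 21.0%, 55.8% and 53.5% in model libraries. Model replicate 1 stood apart, and the other model rats lay within the control range. The shorter isoform was highest in the same library, and the sum of both was 29.5 ± 0.856 FPKM in control and 26.5 ± 1.93 in model lungs (SD, n = 3). This sum of annotated transcripts was lower in every model rat than in any control rat (log2 fold change -0.15, unadjusted p = 0.115, adjusted p = 0.972, limma).

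**Figure D4:**
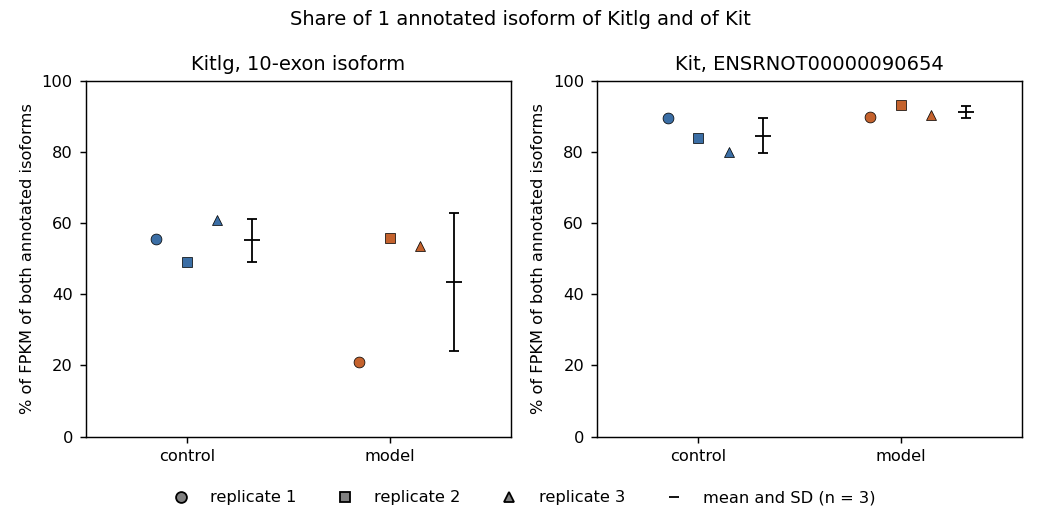
Share of 1 annotated isoform in the FPKM of both annotated isoforms (vertical axis, percent, from 0 to 100) for Kitlg (the isoform of 10 exons) and Kit (ENSRNOT00000090654) in the 3 control and 3 model libraries; symbols mark the replicate and bars the mean and SD (n = 3). The Kitlg share of model replicate 1, 21.0%, lies far below the other 5 libraries, and the Kit shares lie between 80.0% and 93.3%.

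Circular RNAs, which arise when an exon end is joined back to an upstream exon start, were deposited for 2 of the 9 members. Of 5216 circRNAs, 3 came from Kit and 1 from Kitlg, with 8 back-splice reads in the control and 5 in the model libraries in all. The best covered was circRNA333 of Kit (chromosome 14, 35102267 to 35117990), with 5 reads in control replicate 1, 1 in model replicate 2 and 0 in the other libraries. Libraries held between 2037 and 2964 back-splice reads over all circRNAs, so no comparison was made at this depth.

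Other genes of mast cell biology and of other lung cells were taken from 8 lists, and of the 90 tested 0 were called (limma), where 1.53% of all genes were. At an unadjusted p of at most 0.05 there were 4, all higher in the model, or 4.44% of the 90 where 4.9% of all genes reached it. The groups did not overlap for 8 of the 90, 4 higher and 4 lower, where they did not for 10.7% of all genes. Among 13 tested granule and lineage genes, 7 were above 0 and 6 below, with a median log2 fold change of 0.02. Cd63, a tetraspanin of granule and lysosome membranes that many cell types share, had 30.7, 30.3 and 30.4 FPKM in control and 37.2, 34.7 and 38.7 FPKM in model libraries. The control values were nearly equal and all model values lay above them (log2 fold change 0.27, 95% interval 0.10 to 0.43, unadjusted p = 0.00782, adjusted p = 0.934, limma).

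Of 18 tested genes that act downstream of the IgE receptor, 10 had a log2 fold change above 0 and 8 below, with a median of 0.03. The groups did not overlap for 2 genes higher and 3 lower in the model, where they did not for 10.7% of all genes. Stim1, the calcium sensor of the endoplasmic reticulum, was at 9.41 ± 0.689 FPKM in control and 11.2 ± 0.384 in model lungs. Orai1, the calcium channel that Stim1 opens, was at 7.72 ± 0.423 and 9.39 ± 0.373 FPKM (SD, n = 3). Both were apart between groups, with unadjusted p values of 0.0398 and 0.0250 and adjusted p values of 0.934 (limma), and both are expressed in most cell types. Lat2, an adaptor of mast cells and other leukocytes, was at 4.37 ± 0.581 and 3.31 ± 0.536 FPKM, with all model values below all control values (unadjusted p = 0.0699, adjusted p = 0.934, limma).

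Of 11 tested genes of histamine and eicosanoid handling, 6 were above 0 and 5 below, with a median log2 fold change of 0.01. Alox5ap, which presents arachidonic acid to the lipoxygenase of the leukotriene pathway, had 11.6, 9.57 and 9.22 FPKM in control and 13.2, 10.8 and 11.6 FPKM in model libraries, which overlapped. Ltc4s, the synthase of leukotriene C4, was at 2.02 ± 0.367 FPKM in control and 1.43 ± 0.654 in model lungs (SD, n = 3, adjusted p = 0.934, limma). Ptgs1, a cyclooxygenase of prostaglandin synthesis, was at 9.27 ± 0.532 and 8.34 ± 0.910 FPKM (SD, n = 3). Of 13 tested growth factor and Kit signalling genes, 0 had an unadjusted p of at most 0.05 (limma), and 8 were above 0 and 5 below, with a median of 0.05. Among them Il33, an alarmin that acts on mast cells, had 49.1, 23.0 and 37.4 FPKM in control and 38.7, 42.3 and 43.3 FPKM in model libraries, so that the control rats spanned the model range. Crlf2, a subunit of the receptor for thymic stromal lymphopoietin, was at 5.40 ± 0.752 FPKM in control and 6.16 ± 0.192 in model lungs, and Sh2b3, an adaptor that restrains Kit and cytokine signals, at 20.2 ± 1.55 and 21.2 ± 0.909 FPKM (SD, n = 3). Both overlapped between groups.

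Basophils and eosinophils share Fcer1a, Ms4a2 or Hdc with mast cells, and their markers were measured as well. Of 14 listed markers, 9 were tested, 5 above 0 and 4 below, with a median log2 fold change of 0.01 and 0 called. The summed FPKM of the list ranged from 9.04 to 11.0 in control and from 9.26 to 10.7 in model lungs. Of the 9 tested, 6 had a mean below 1 FPKM, and the other 3 were Siglec5, Il3ra and Cd200r1. Siglec5 was at 2.36 ± 0.768 FPKM in control and 2.08 ± 0.691 in model lungs. Il3ra, a subunit of the interleukin 3 receptor, was at 5.31 ± 0.468 and 5.54 ± 0.945. Cd200r1, an inhibitory receptor, was at 1.63 ± 0.739 and 1.498 ± 0.775 (SD, n = 3). Prss34, a basophil protease, was listed at 0 in 5 of the 6 libraries and at 0.0373 FPKM in the other, and Mcpt8, a further basophil protease, lay between 0 and 0.575 FPKM.

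The low members took their extremes from a few libraries. Of the 7 members other than Kit and Kitlg, 4 were lowest in model replicate 3, 2 in control replicate 1 and 1 in model replicate 2, while 3 were highest in control replicate 2, 2 in control replicate 3 and 2 in model replicate 2. Summed over these 7 genes, the level was 4.76, 7.27 and 7.31 FPKM in control and 5.90, 7.09 and 3.40 FPKM in model libraries, the intronic Cpa3 fragment included, and 4.71 ± 1.30 and 3.65 ± 1.15 FPKM over annotated transcripts (SD, n = 3). The lowest sum belonged to a model rat and the highest to a control rat, and the groups overlapped. Of the granule list, Mcpt1 had 0.869, 2.78 and 1.40 FPKM in control and 0.596, 1.59 and 2.88 FPKM in model libraries. Mcpt1 was thus highest in model replicate 3, whereas Mcpt1l1 was lowest there, at 0.107 FPKM. Without model replicate 3, the library with high Bpifa1 and Muc5b, Hdc had a log2 fold change of -0.13, Tpsb2 one of -0.07 and Kit one of 0.23.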

How the data were processed

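Total RNA of 6 rat lungs (3 control, 3 model) was depleted of rRNA and made into stranded libraries. Per the methods and the submitters' processing notes, the authors used Cutadapt for trimming and Bowtie2 and TopHat for mapping (the notes also name HISAT2), and assembled and quantified transcripts with StringTie and Ballgown. Versions and genome build are not given in the sources used here. The deposited table gives FPKM and mean base coverage per transcript, and the deposited circRNA table gives raw counts of back-splice reads. Its SRPBM signal, made by the authors, was not used.

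FPKM were summed over the transcripts of a gene name, including intronic and flanking assemblies, which mixes them with exonic signal. Genes above 0 in at least 3 libraries were tested on log2(FPKM + 1) with limma 3.58.1 (R 4.3.3, variance trend), which understates changes of low genes. FPKM are not counts, so no count test was run. Estimated reads are coverage times transcript length divided by 150 bases, and these and the 3-read floor cover counting error only. Exact permutation tests were two-sided. Summaries used Python 3.11.15 and pandas 2.3.3. The limma step was tested on simulated data in which only genes of higher level were given a change, and a large one. That test does not cover the low members or small differences. Alternatives changed the pseudocount, filter, summing, scaling, trend, replicate block and samples.

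The members, lists and tests were chosen with earlier results of these data known. Named genes were every member and its transcripts, the called genes or else up to 3 genes of smallest p (mean of at least 1 FPKM) of each other list, and the 5 genes most like the summed proteases. Fcer1g, Sftpc, Scgb1a1, Scgb3a2, Gata1, Prss34, Mcpt1, Mcpt1l1, Mcpt8 and Bpifa1 were named after their values were seen. Of 127 listed genes, 19 were not matched by name and 9 were below the filter.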

Additional observations from a re-analysis of the deposited data

How the results depend on the processing

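Of 139 alternative values of single members, 133 kept direction and call, 5 turned sign and 1 gained a call, all 6 by leaving out 1 rat. Leaving out each rat in turn, the log2 fold change ranged from -0.094 to 0.30 for Cma1, from -0.28 to 0.19 for Cpa3, from -0.32 to 0.063 for Fcer1a and from -0.18 to -0.08 for Ms4a2. With 0.1 in place of 1 added to each FPKM, the log2 fold change was -0.67 for Ms4a2, -0.41 for Tpsab1, -0.43 for Tpsb2, -0.32 for Fcer1a, -0.12 for Cpa3 and 0.42 for Cma1, so that Ms4a2 was lowest where Hdc (-0.32 here) was lowest with 1 added, and 0 members were called (limma). Length weighting moved Kitlg to -0.04 and Kit to 0.13. Called members numbered between 0 and 1 (Ms4a2, without control replicate 1), and called transcripts of members between 0 and 1. With 1 rat left out, called genes numbered between 302 and 396, against 293 with all 6 libraries. Without the variance trend 200 genes were called. A mean of at least 1 FPKM left 80 called genes, and annotated transcripts only, an alternative chosen after seeing the data (as was leaving out intronic and flanking transcripts), gave 519. Rescaling to TPM gave 332 called genes, 194 higher and 138 lower, where the deposited FPKM gave 132 higher and 161 lower. Outside the leave-one-out fits, the Kit log2 fold change ranged from 0.13 to 0.64, with unadjusted p from 0.0154 to 0.148 (limma), and over all alternatives its adjusted p was at least 0.819.

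The labels link same-numbered control and model rats by the number alone. Their deviations from the group means correlated at 0.07, 0.03 and -0.07, and those of differently numbered rats at between -0.13 and 0.09. Deviations from a group mean sum to 0 within each group, which constrains these values, and a batch shared by same-numbered rats was not tested. With the replicate number as a block, 311 genes, 0 members and 1 transcript of a member (MSTRG.32417.8 of Kitlg, lower, unadjusted p = 0.0360, adjusted p = 0.939, limma) were called. With 5 members below 1 FPKM, depth limits what can be seen for Tpsab1, Ms4a2, Fcer1a and Cma1 in particular.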
